A study of Mus musculus with 6 samples.

Results

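Potassium channel genes were examined in RNA sequencing of the mouse brainstem, as the rows of the deposited table whose gene symbol begins with Kcn, followed by subfamily letters and a number. Of 90 such rows, 4 were left out by name (Kcne2, Kcnj13, Kcna4 and Kcnq1ot1), and 3 had a mean under 0.1 CPM, read counts scaled to library size, over the 6 libraries (Kcna10, Kcnj15 and Kcnv2). Kcna10 was just outside this limit with a mean of 0.0853 CPM and Kcnk7 just inside it with 0.205 CPM. The remaining 83 genes, 80 coding for proteins and 3 antisense transcripts, are the members described here, out of 16762 genes tested and 18058 genes in the table. Total RNA came from snap-frozen whole brainstems of mice at 1 month of age. WT mice were C57BL/6J (3 libraries), and the others were Rag1-/- (B6.129S7-Rag1tm1Mom/J, 3 libraries), a germline loss of the gene in all cells. Rag1 is needed to join the segments of antigen receptor genes, so mice without it have no mature T or B cells, while their other leukocytes remain. The study compared these brainstems to find transcripts that differ in a host without lymphocytes, and the question here is whether the genes that set neuronal and glial potassium conductance were among them.

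Potassium channels set the resting potential, repolarise the membrane after an action potential and clear potassium from the space around active cells. Voltage-gated subunits (Kv, encoded by Kcna to Kcnd, Kcnh and Kcnq) form tetramers, joined by beta, KChIP or silent modifier subunits that change their gating. Inward rectifiers (Kcnj) and two-pore leak channels (Kcnk) hold the resting potential, and other families open with intracellular calcium or sodium (Kcnma1, Kcnn and Kcnt). In the brainstem, these channels are known for precise, rapid firing in auditory nuclei, for the excitability of cranial motor neurons and for sensing carbon dioxide and acid.

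None of the 83 genes passed the adjusted threshold. In limma-trend on log2(CPM + 0.1), the lowest adjusted p among them was 0.335, and 0 had an adjusted p under 0.05, against 0.0477% of all genes tested. At an unadjusted p of at most 0.05 there were 15 (18.1% of the members, against 11.6% of all genes). Of these, 14 were lower in the brainstems labelled Rag1-/- (16.9%, against 9.29% of all genes), and 1, Kcne1l, was higher (1.20%, against 2.27%). The genes with the smallest p were Kcnj6 and Kcnh4, at 0.785 and 0.558 times the WT level, and others among the smallest were Kcnq3 and Kcnc1, at 0.875 and 0.902 times. Because whole tissue was sequenced, fewer cells of a type and less RNA per cell cannot be told apart.

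These counts moved with the scaling and with single libraries. Under the rescalings the share of all genes that was lower fell as well, from 9.29%. After median-of-ratios rescaling, 7 members were lower and 2 higher at this unadjusted threshold, beside 4.38% and 4.70% of all genes, and after quantile normalization 6 were lower and 2 higher, beside 3.82% and 5.10%. The 14 lower became 8 without WT replicate 1 (beside 7.09% of all genes in that fit), 9 without WT replicate 3 (9.31%), 9 without the library labelled Rag1-/- replicate 1 (5.18%) and 8 without that labelled Rag1-/- replicate 3 (7.53%). The 1 higher became 0 without Rag1-/- replicate 1 (beside 1.45% of all genes) and 4 without Rag1-/- replicate 2 (2.04%).

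Read library by library, 12 members had every value labelled Rag1-/- below every WT value (14.5% of the members, against 14.4% of all genes), and 2 had every such value above WT (2.41%, against 3.98%). The share with no overlap downward was thus close to the background. After median-of-ratios rescaling, 6 members had no overlap downward, beside 7.74% of all genes. The other 69 overlapped between the genotypes. By the fitted log2 fold change, 61 members were below 0 and 22 above, while 67.7% of all genes were below 0, and the median was -0.07 for the members and -0.05 for all genes. The values ran from -0.84 (Kcnh4) to 0.48 (Kcnk15). The medians of members and of all genes were -0.0424 and -0.00976 after median-of-ratios rescaling, and -0.127 and -0.0542 without WT replicate 2. The median standard error was 0.119 on the log2 scale. The coefficient of variation within a genotype had a median of 10.2% in WT and 10.3% in the brainstems labelled Rag1-/-.

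**Figure D1:**
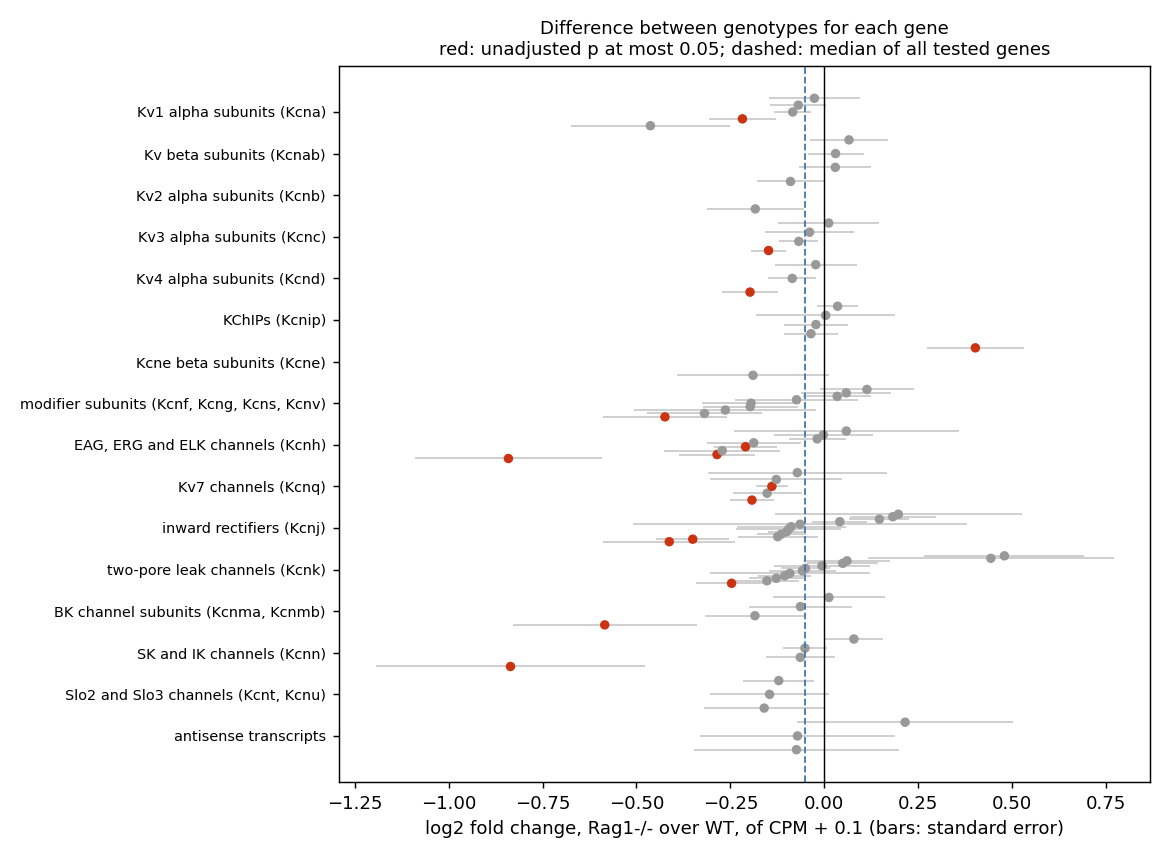
Fitted log2 fold change, labelled Rag1-/- over WT, of CPM + 0.1 for each of the 83 genes (points) with its standard error (bars), in rows by subfamily, with red points where the unadjusted p is 0.05 or less and a dashed line at the median of all tested genes. The 15 red points are 14 to the left of 0 and Kcne1l to the right, and most grey points lie close to the dashed line at -0.05.

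Several properties of the libraries bear on these values. The step between low values placed the depth at 31200000 to 46100000 reads, so that 3 reads equal 0.0651 to 0.0961 CPM, which covers counting error only, and Kcnk7 was the only member with a library at or under that level. Counts of the targeted gene were not lower under the Rag1-/- label. Rag1 was at 0.236, 0.388 and 0.115 CPM in WT and at 2.60, 4.02 and 2.90 CPM in the brainstems labelled Rag1-/- (log2 fold change 3.30, adjusted p = 0.0120 by limma-trend). A value for the whole gene does not show whether its transcript was intact, and the cause was not tested. Each direction given for these brainstems rests on the label. Xist, from the inactive X, read 172 CPM in WT replicate 1, 177 CPM in WT replicate 2 and 0.462 to 2.93 CPM elsewhere, and Y-linked Ddx3y read 0.215 to 0.283 CPM in that pair and 45.2 to 56.2 CPM elsewhere. Markers of the neighbouring tissue also varied. A list of 10 brainstem genes, 6 of them Hox genes, summed to 41.6 to 107 CPM in WT and 40.0 to 139 CPM in the brainstems labelled Rag1-/-, and Hoxb3 was at 0.412 CPM in Rag1-/- replicate 2 against 2.501 to 7.86 CPM elsewhere. A list of 8 cerebellar genes summed to 574 CPM in WT replicate 3 against 149 to 260 CPM elsewhere, and 6 pituitary genes summed to 657 CPM there against 2.72 to 57.3 CPM elsewhere. Of 8 oligodendrocyte genes, 7 were higher at an unadjusted p of at most 0.05 in the brainstems labelled Rag1-/-, beside 2.27% of all genes. Their lowest adjusted p was 0.258 (Mog, by limma-trend), and the sums were 24622 to 25982 CPM against 18991 to 22182 CPM in WT. Of 10 neuronal genes 0 passed, with sums of 4802 to 4966 CPM against 4897 to 5113 CPM. Of 8 astrocyte genes 1 was higher and 0 lower at that p, and their sums were 3445 to 3504 CPM in the brainstems labelled Rag1-/- against 3177 to 3375 CPM in WT, without overlap (exact permutation p = 0.1, two-sided). Slc1a2 made up the largest part of these sums, and Gfap, Slc1a3 and Gjb6 had log2 fold changes below 0. Leaving out both WT replicate 3 and Rag1-/- replicate 2, a choice made after seeing the data, gave 13 members lower and 2 higher at the unadjusted threshold, beside 9.22% and 2.5% of all genes. A model term for Xist gave 12 and 3, beside 12.3% and 3.96%, but WT replicates 1 and 2 are the only libraries high in Xist, so with this term the comparison rests on WT replicate 3 alone. The part of the glial differences in the channel values was not tested.

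Levels of different genes were compared only per length, as CPM per kb of merged exon (mean of 6 libraries). On that scale Kcnj10, the inward rectifier of astrocytes and oligodendrocytes, was highest at 151, followed by the beta subunit gene Kcnab2 at 101, and Kcna1 at 85.0. The leak channel gene Kcnk1 was at 44.7, Kcna2 at 39.9 and Kcnc1 at 35.5. At the other end Kcnh4 was at 0.117 and Kcnk7 at 0.141. In summed CPM, which does not correct for length, inward rectifiers made up 21.8% of the CPM of the 83 members, Kv1 subunits 19.9% and Kv3 subunits 19.0%. The 83 genes together summed to 5016 to 5309 CPM in WT and to 4800 to 5255 CPM in the brainstems labelled Rag1-/-, with overlap.

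**Figure D2:**
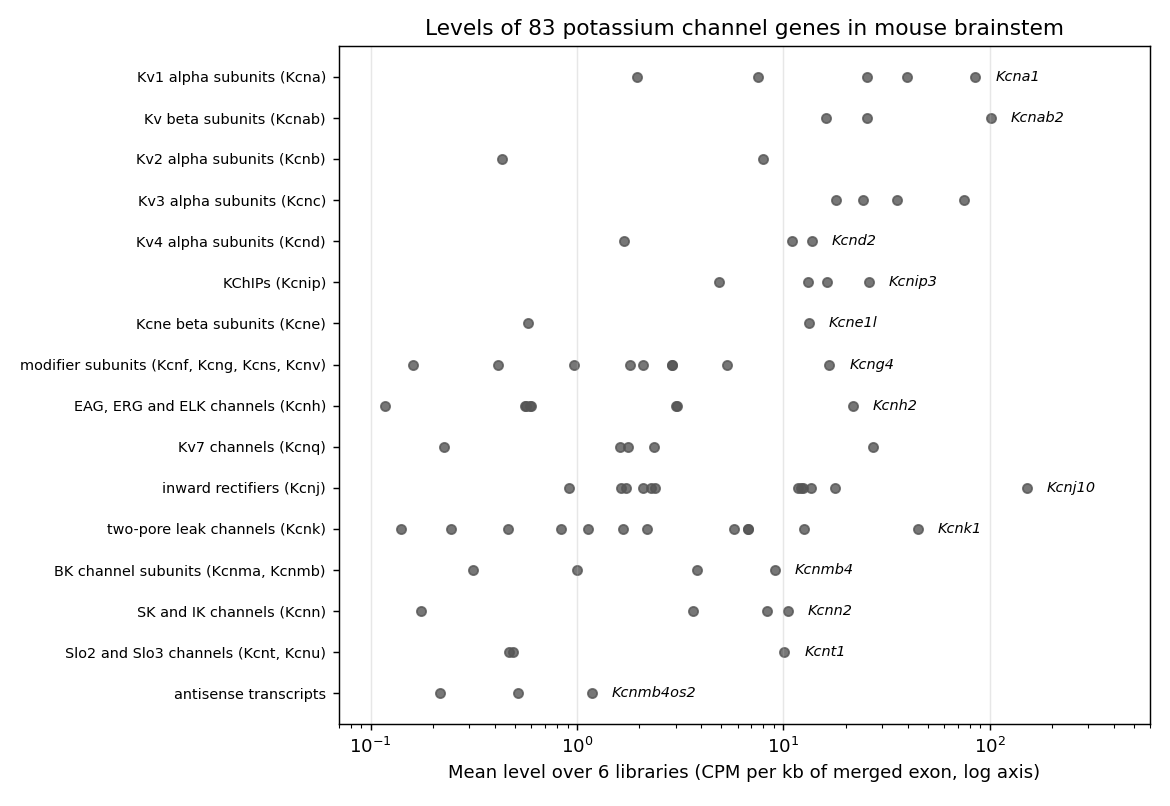
Mean level of each of the 83 genes over the 6 libraries, in CPM per kb of merged exon on a log axis, in rows by subfamily with the highest gene named in most rows. Kcnj10 lies furthest right at 151, and BK and Slo2 genes reach no more than 10.1.

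Among Kv1 subunits, which form low-threshold channels along axons and their terminals, Kcna3 was the single gene of 5 with an unadjusted p of at most 0.05, beside 9.29% of all genes lower at that p. With so few genes in a family, 1 such gene says little about the family. Values in all of what follows are in the order of replicates 1, 2 and 3. Kcna1 stood at 349.6, 430.2 and 354 CPM in WT and at 386, 306 and 426 CPM in the brainstems labelled Rag1-/-. Kcna2 was at 489, 525 and 445 CPM in WT and at 452, 435 and 505 CPM in the others. Both genes had their highest value in WT replicate 2 and their lowest in Rag1-/- replicate 2, and the genotypes overlapped. Kcna6 lay between 136 and 156 CPM in all libraries. Kcna3 (chromosome 3, 107036162 to 107038129, plus strand), also the main Kv1 gene of T cells, was at 15.6, 14.6 and 15.8 CPM in WT and at 12.6, 15.02 and 12.01 CPM in the brainstems labelled Rag1-/-. Replicate 2 of the latter exceeded WT replicate 2, so the groups overlapped, with a log2 fold change of -0.22 (SE 0.09, adjusted p = 0.417 by limma-trend). Kcna5, known from smooth muscle and microglia, reached 9.04 CPM in WT replicate 3 and lay between 4.04 and 5.50 CPM in the other 5 libraries. The cytoplasmic beta subunits, which attach to Kv1 channels, showed 0 of 3 genes past the threshold. Kcnab2 was at 417, 438 and 378 CPM in WT and at 442, 379 and 439 CPM in the brainstems labelled Rag1-/-, fully overlapping.

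Kv2 subunits carry the delayed rectifier of neuronal cell bodies, and Kcnb2, at 5.14 to 7.62 CPM, did not pass. Kv3 subunits open at strong depolarisation and close fast, which lets auditory and other neurons fire at high rates. Of 4 such genes, Kcnc1 had a p of at most 0.05 (beside 9.29% of all genes lower). This gene (chromosome 7, 46396468 to 46438704, plus strand) was at 342, 351 and 357 CPM in WT and at 305, 309 and 333 CPM in the brainstems labelled Rag1-/-. All 3 WT libraries were above all 3 others, with a narrow gap between WT replicate 1 and Rag1-/- replicate 3. The means were 349.8 ± 7.65 and 316 ± 15.4 CPM (SD, n = 3 each), a log2 fold change of -0.15 (SE 0.05, unadjusted p = 0.0120, adjusted p = 0.354 by limma-trend). Kcnc2 lay between 101 and 141 CPM and Kcnc4 between 84.3 and 97.8 CPM, with overlap.

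Kv4 subunits carry the A-type current that delays firing and shapes dendritic signals, and of 3 genes Kcnd3 passed the unadjusted threshold (beside 9.29% of all genes lower). Kcnd3 (chromosome 3, 105452330 to 105674002, plus strand) was at 97.7, 83.5 and 86.1 CPM in WT and at 73.9, 84.8 and 74.2 CPM in the brainstems labelled Rag1-/-. Rag1-/- replicate 2 lay above WT replicate 2, and the log2 fold change was -0.20 (SE 0.07, unadjusted p = 0.0272, adjusted p = 0.390 by limma-trend). Without WT replicate 1 it was -0.13. Kcnd2, slightly higher per length than Kcnd3, lay between 64.4 and 74.9 CPM, with both ends in libraries labelled Rag1-/-. None of the 4 KChIP genes, whose calcium-binding products assemble with Kv4 channels, passed. Kcnip3, the highest of them per length, stood at 82.7, 85.2 and 80.3 CPM in WT and at 90.5, 85.0 and 79.3 CPM in the others.

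Kcne genes encode small single-pass subunits that alter Kv currents, and Kcne1l (also called Kcne5) was the only member higher at an unadjusted p of at most 0.05. The gene lies on the X chromosome (142304753 to 142306198, minus strand). It was at 14.2, 18.01 and 21.1 CPM in WT and at 25.0, 23.0 and 21.7 CPM in the brainstems labelled Rag1-/-. WT replicate 3 nearly reached the lowest of these, while WT replicates 1 and 2, which had Xist over 100 CPM, were the lowest of all 6. The log2 fold change was 0.40 (SE 0.13, unadjusted p = 0.0135, adjusted p = 0.359 by limma-trend). It was 0.25 without WT replicate 1, and 0.14 with a model term marking high Xist (over 100 CPM), where the comparison rests on WT replicate 3 alone. Kcne4 lay between 1.03 and 1.77 CPM in all libraries.

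The modifier genes (Kcnf, Kcng, Kcns and Kcnv) encode subunits that form no channel alone and change Kv2 channels when joined to them. Of 9, Kcnv1 passed the unadjusted threshold, a share near the 9.29% of all genes that were lower. Kcnv1 (chromosome 15, 45106284 to 45114934, minus strand) was at 2.03, 2.20 and 2.01 CPM in WT and at 1.36, 1.90 and 1.37 CPM in the brainstems labelled Rag1-/-. The groups did not overlap, although Rag1-/- replicate 2 was close to WT replicate 3, and the log2 fold change was -0.42 (SE 0.16, unadjusted p = 0.0306, adjusted p = 0.395 by limma-trend). Kcng4, the highest of these per length, lay between 52.8 and 73.6 CPM. Kcnf1 ranged from 19.9 to 33.6 CPM with its highest value in WT replicate 3.

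In the Kcnh family (EAG, ERG and ELK channels), 3 of 8 genes had an unadjusted p of 0.05 or less, all lower in the brainstems labelled Rag1-/-, beside the 9.29% of all genes. Kcnh1, which encodes the EAG channel of axon terminals (chromosome 1, 192190777 to 192510159, plus strand), was at 21.0, 23.1 and 27.6 CPM in WT and at 18.4, 19.0 and 21.2 CPM in the brainstems labelled Rag1-/-. WT replicate 1 lay just below Rag1-/- replicate 3, so the groups overlapped, and the log2 fold change was -0.29 (SE 0.10, unadjusted p = 0.0211, adjusted p = 0.373 by limma-trend). Without WT replicate 3 it was -0.18, and with the Xist term, where WT is replicate 3 alone, -0.50. Kcnh7, an ERG channel gene (chromosome 2, 62702946 to 63184287, minus strand), stood at 9.16, 9.28 and 8.08 CPM in WT and at 7.71, 7.29 and 7.86 CPM in the others. The groups did not overlap, WT replicate 3 being the nearest, and the log2 fold change was -0.21 (SE 0.09, unadjusted p = 0.0370, adjusted p = 0.408 by limma-trend). With the Xist term, where WT is again replicate 3 alone, it was -0.08. Kcnh4, an ELK channel gene (chromosome 11, 100740378 to 100759778, minus strand), was near the low end of the members, at 0.590, 0.452 and 0.834 CPM in WT and at 0.318, 0.285 and 0.285 CPM in the brainstems labelled Rag1-/-. All WT values were higher and differed more among themselves than the others did. Its log2 fold change of -0.84 (SE 0.25, unadjusted p = 0.00869, adjusted p = 0.340 by limma-trend) depended on the pseudocount, at -0.32 with 1 in place of 0.1. Kcnh2, the most abundant of the family and the gene of the cardiac rapid delayed rectifier, lay between 87.7 and 108 CPM, with both ends in libraries labelled Rag1-/-.

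Kv7 channels (Kcnq) carry the M-current, a slow current at the axon initial segment that restrains repetitive firing and is closed by muscarinic receptors, and Kcnq3 encodes one of its neuronal subunits. Kcnq3 (chromosome 15, 65994915 to 66286224, minus strand) was at 23.0, 21.7 and 22.3 CPM in WT and at 18.8, 20.6 and 19.1 CPM in the others. All WT libraries were above all others, with Rag1-/- replicate 1 lowest and WT replicate 1 highest. The log2 fold change was -0.19 (SE 0.06, unadjusted p = 0.0102, adjusted p = 0.345 by limma-trend). Kcnq5 was at 17.4, 17.1 and 17.4 CPM in WT and at 13.4, 17.0 and 16.5 CPM in the brainstems labelled Rag1-/-, where replicate 2 nearly reached WT without overlap. Kcnq1, which overlaps the antisense Kcnq1ot1, lay between 0.519 and 0.926 CPM. Whether strand was used in counting is not given in the sources used here, so reads of this pair may not have been separated.

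**Figure D3:**
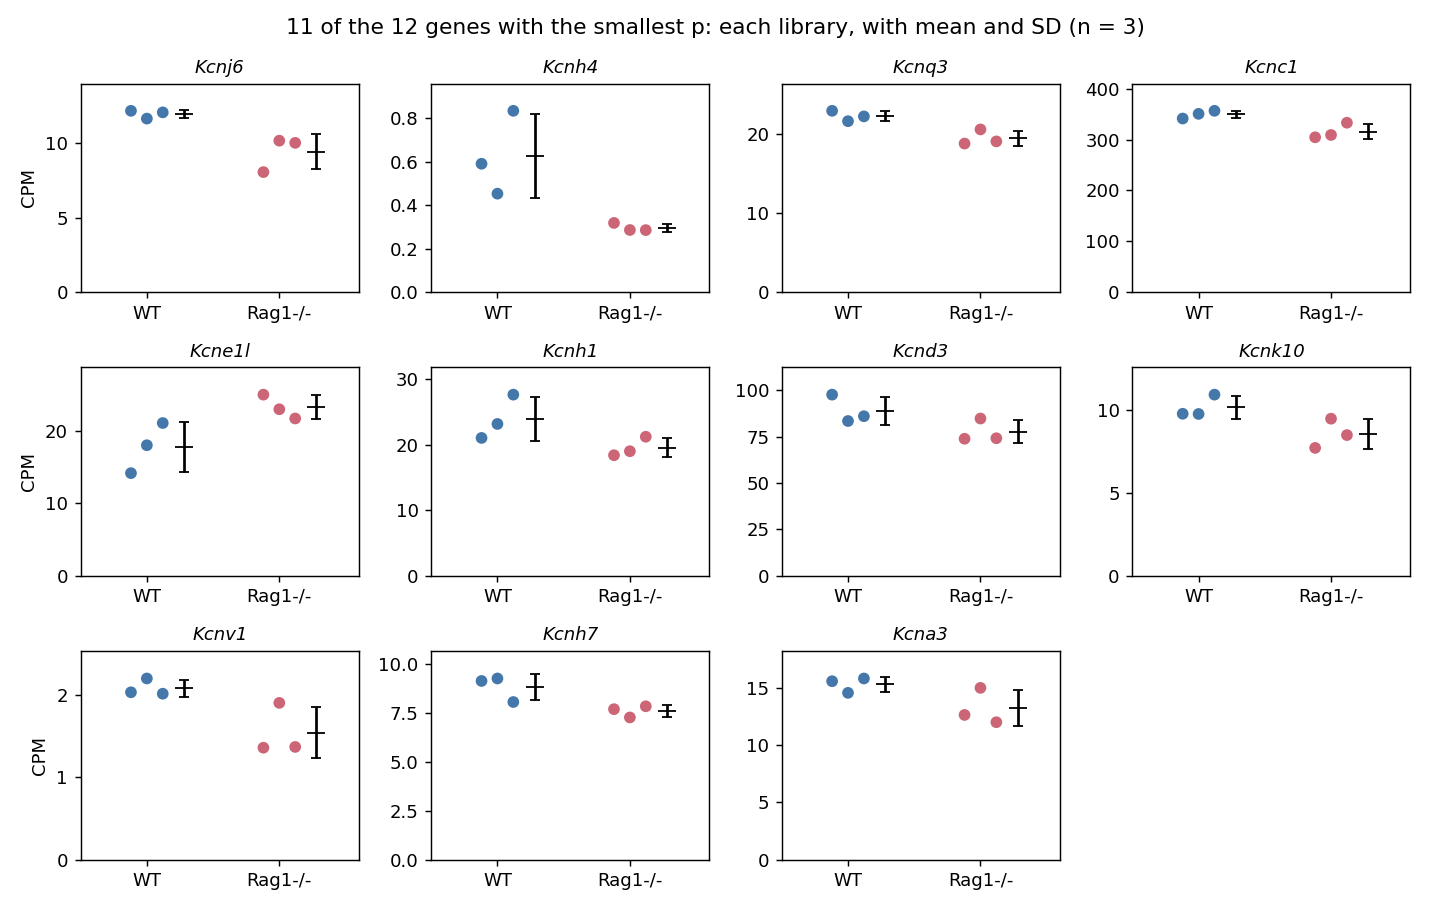
CPM in each library (points) with the mean and SD (n = 3) for 11 of the 12 genes with the smallest unadjusted p, WT in blue and the brainstems labelled Rag1-/- in red, each on an axis from 0. Only Kcne1l is higher in red, and Kcnh1, Kcnd3 and Kcna3 are the panels where the points of both groups overlap.

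Inward rectifiers pass potassium more readily into the cell, and of 12 genes Kcnj6 and Kcnj5 were lower at an unadjusted p of at most 0.05 (beside 9.29% of all genes), and 4 had no overlap downward (beside 14.4%). Kcnj3, Kcnj5, Kcnj6 and Kcnj9 encode GIRK channels, which G protein-coupled receptors open to slow neurons. Kcnj6 (chromosome 16, 94748683 to 94997696, minus strand), the member with the smallest p, was at 12.2, 11.7 and 12.1 CPM in WT and at 8.06, 10.2 and 10.02 CPM in the brainstems labelled Rag1-/-. The WT libraries lay close together and above the others, of which replicate 1 was lowest. The means were 11.97 ± 0.278 and 9.42 ± 1.18 CPM (SD, n = 3 each), a log2 fold change of -0.35 (SE 0.10, unadjusted p = 0.00633, adjusted p = 0.335 by limma-trend). By exact permutation over the 6 libraries (two-sided) p was 0.1, the floor for 3 against 3, here as for each gene without overlap. Kcnj5 was at 5.66, 4.24 and 4.80 CPM in WT and at 4.10, 4.18 and 2.79 CPM in the others. Kcnj3 stood at 72.9, 62.6 and 62.4 CPM in WT and at 58.8, 61.7 and 61.8 CPM in the others, separated by less than 1 CPM. Both groups of Kcnj9, the most abundant GIRK gene per length, overlapped at 59.9 to 78.7 CPM in WT and 61.9 to 72.7 CPM in the brainstems labelled Rag1-/-. Kcnj5 and Kcnj3, like Kcnj11, Kcnq5, Kcnmb1, Kcnn4 and Kcnk15, were picked out for their levels after the values were seen. Kcna5, Kcnf1, Kcnj4 and Kcnj14, also outside the 12 with the smallest p, are described by single libraries with the values known.

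Among the other inward rectifiers, glial Kcnj10 was at 796, 814 and 713 CPM in WT and at 956, 789.8 and 829.9 CPM in the brainstems labelled Rag1-/-. Replicate 1 of the latter stood above all, and replicate 2 lay within the WT range, so the genotypes overlapped. The summed astrocyte and oligodendrocyte markers were also higher in the brainstems labelled Rag1-/-, and their part in the Kcnj10 values was not tested. Kcnj16, its partner in astrocytes, lay between 43.4 and 51.2 CPM. Kcnj11, the pore of ATP-sensitive channels that open when energy is low, was at 40.0, 41.1 and 40.7 CPM in WT and at 37.4, 36.4 and 39.8 CPM in the brainstems labelled Rag1-/-, without overlap. Kcnj8, the pore used in pericytes, lay between 5.03 and 7.10 CPM. Kcnj4 and Kcnj14 encode Kir2 channels. Kcnj4, a forebrain gene, was at 4.72, 2.13 and 7.24 CPM in WT and at 2.51, 6.56 and 3.87 CPM in the brainstems labelled Rag1-/-, a ratio of 3.40 between the highest and lowest library. Kcnj14, known from cranial motor nuclei, was at 2.60, 5.86 and 4.54 CPM in WT and at 4.56, 3.26 and 7.06 CPM in the others. Both genes overlapped between the genotypes.

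**Figure D4:**
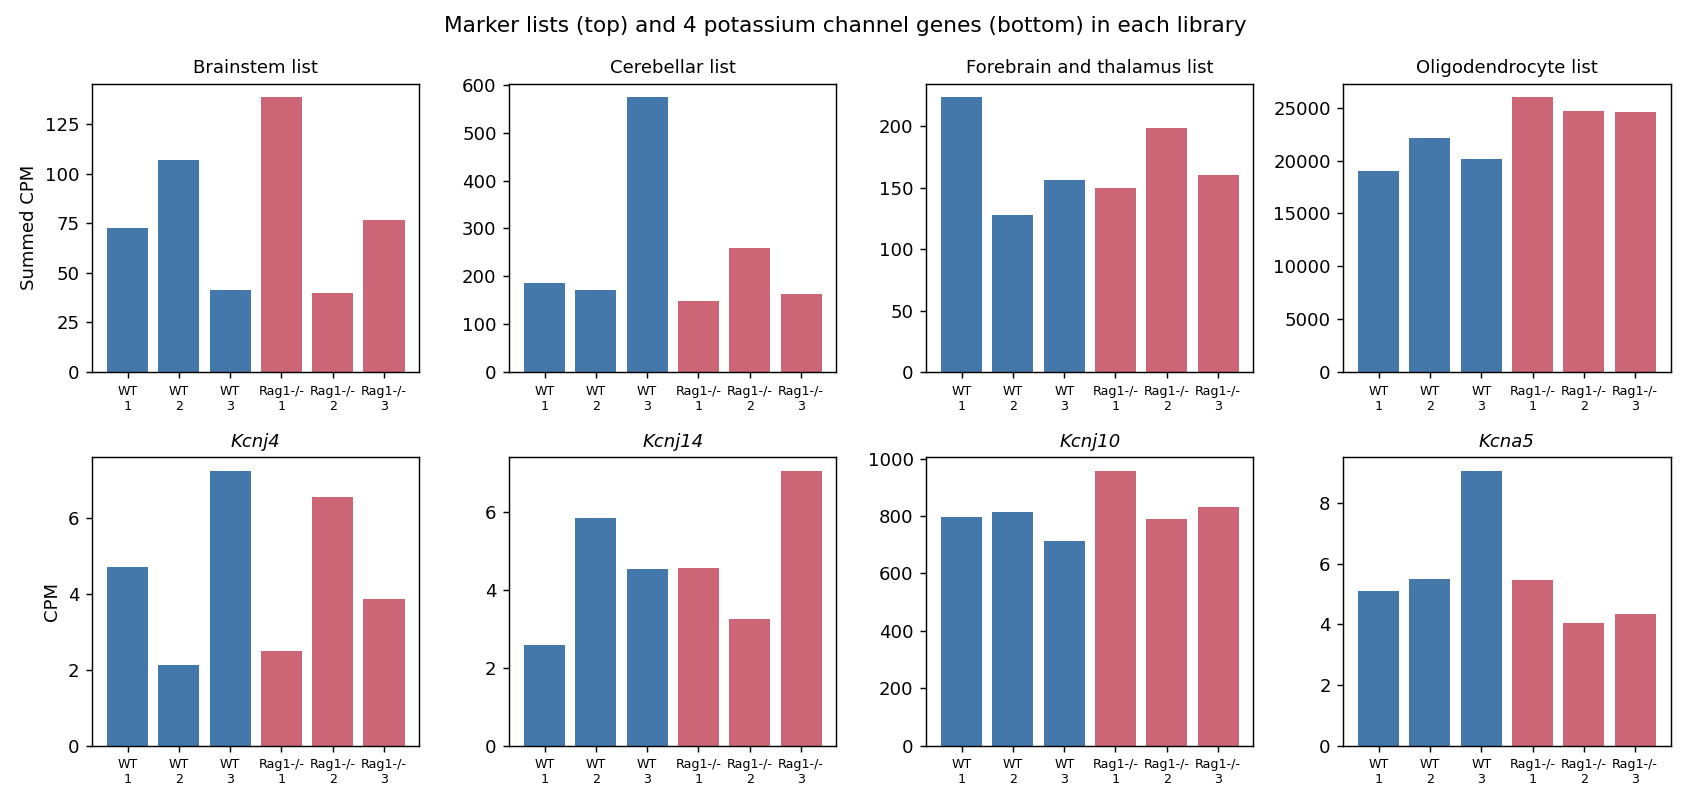
Summed CPM of 4 marker lists (top) and CPM of Kcnj4, Kcnj14, Kcnj10 and Kcna5 (bottom) in each library, on axes from 0, WT in blue and the brainstems labelled Rag1-/- in red. Kcnj4, Kcnj14 and Kcnj10 overlap between the groups, and the highest Kcna5 value, in WT replicate 3, stands apart from the other 5.

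Two-pore leak channels hold the resting potential, and of 12 genes 1, Kcnk10, had an unadjusted p of at most 0.05, a share near the 9.29% of all genes that were lower. Kcnk10 (chromosome 12, 98429437 to 98578213, minus strand), which encodes a mechanosensitive channel of the TREK group, was at 9.77, 9.76 and 10.9 CPM in WT and at 7.71, 9.47 and 8.48 CPM in the brainstems labelled Rag1-/-. The groups did not overlap, with Rag1-/- replicate 2 nearest to WT, and the log2 fold change was -0.25 (SE 0.10, unadjusted p = 0.0304, adjusted p = 0.395 by limma-trend). The gene overlaps Gm40893 on the other strand, at 0.219 CPM. Kcnk2, of the same group, lay between 24.8 and 33.8 CPM, with overlap. The acid-sensitive TASK genes of motor and respiratory neurons overlapped too, Kcnk3 at 43.5 to 55.3 CPM and Kcnk9 at 19.2 to 23.2 CPM. Kcnk5, of the carbon dioxide-sensing retrotrapezoid nucleus, lay between 1.11 and 1.85 CPM. Kcnk13, the leak channel of microglia, was at 18.4, 19.7 and 15.1 CPM in WT and at 18.7, 17.8 and 18.2 CPM in the others. Kcnk15 had its 3 highest values in the brainstems labelled Rag1-/-, at 0.607, 0.507 and 0.655 CPM against 0.330, 0.452 and 0.402 CPM in WT, but did not pass (unadjusted p = 0.0525, adjusted p = 0.435 by limma-trend). Kcnk7 was at 0.0863 CPM in WT replicate 3, close to 3 reads, and at up to 0.289 CPM elsewhere.

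Of the calcium- and sodium-activated channel genes, 1 of 4 BK genes (Kcnmb1), 1 of 4 SK and IK genes (Kcnn4) and 0 of 3 Slo2 and Slo3 genes had an unadjusted p of 0.05 or less, beside 9.29% of all genes lower. Kcnmb1 and Kcnn4 both overlapped between the genotypes. Kcnma1, the pore of the BK channel, which opens with calcium and voltage, was at 63.3, 41.4 and 54.0 CPM in WT and at 43.7, 49.4 and 44.6 CPM in the brainstems labelled Rag1-/-. Its WT replicates spanned the range of the others. Kcnmb4, the neuronal BK beta subunit, overlapped at 9.95 to 14.1 CPM. Kcnmb1, the smooth muscle beta subunit, had an unadjusted p of 0.0419 (adjusted p = 0.421 by limma-trend), at 1.79, 1.31 and 1.64 CPM in WT and 1.36, 1.11 and 0.683 CPM in the others. These groups overlapped, and the gene lies within the reach of Kcnip1 on the other strand, at 32.7 CPM, so reads of the pair could not be told apart if strand was not used in counting, which is not given in the sources used here. Small-conductance SK genes set the pause after a spike, and Kcnn2, the highest per length, lay between 36.4 and 41.3 CPM. Kcnn4, the intermediate-conductance gene of lymphocytes, red cells and microglia, was at 0.401, 0.366 and 0.661 CPM in WT and at 0.404, 0.190 and 0.114 CPM in the brainstems labelled Rag1-/- (unadjusted p = 0.0464, adjusted p = 0.429 by limma-trend), again with overlap. The sodium-activated Kcnt1 lay between 55.6 and 75.8 CPM, with its highest value in WT replicate 3. The antisense transcripts Kcnd3os, Kcnmb4os1 and Kcnmb4os2, which overlap their sense genes, lay between 0.209 and 3.61 CPM, and 0 of 3 passed.

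Auxiliary and anchoring genes outside the Kcn names were read from a list of 29, all tested. Of these, 4 were lower at an unadjusted p of at most 0.05 in the brainstems labelled Rag1-/- and 0 higher (13.8%, against the 11.6% of all genes), with 0 under an adjusted p of 0.05 and a median log2 fold change of -0.05. Amigo1, which accompanies Kv2 channels, was at 94.4, 88.8 and 92.4 CPM in WT and at 79.6, 79.2 and 84.5 CPM in the others (log2 fold change -0.18, SE 0.04, unadjusted p = 0.00337, adjusted p = 0.319 by limma-trend). Cntnap2, which clusters Kv1 channels beside the node of Ranvier, was at 115, 115 and 118 CPM in WT and at 98.0, 105 and 111 CPM in the others (log2 fold change -0.15, SE 0.05, unadjusted p = 0.0150, adjusted p = 0.362). Neither Amigo1 nor Cntnap2 overlapped between the genotypes. Cntn2, the partner of Cntnap2, was at 331, 352 and 338 CPM in WT and at 302, 299 and 334 CPM in the others (log2 fold change -0.13, SE 0.05, unadjusted p = 0.0394, adjusted p = 0.415 by limma-trend), with Rag1-/- replicate 3 inside the gap between WT replicates 1 and 3. Dpp6, which speeds Kv4 channels, was at 283, 271 and 284 CPM in WT and at 250.3, 261 and 269 CPM in the others (log2 fold change -0.10, SE 0.04, unadjusted p = 0.0416, adjusted p = 0.421 by limma-trend). After median-of-ratios rescaling 1 of the 29 passed, beside 9.09% of all genes, without Rag1-/- replicate 1 also 1, beside 6.63%, and without WT replicate 3 there were 2, beside 11.6%. HCN pacemaker channel genes were 0 of 4.

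Promoter sequence from RefSeq (GRCm38.p6) was read for 59 of the 83 members, those with an entry in the promoter table used here, as 82 windows of the 250 bases before a transcription start. Those of Kcnj6 (smallest p), Kcnc1 (the most abundant gene among the 12 with the smallest p) and Kcne1l (the only higher gene) are shown to set the windows of lower and higher genes side by side, 5′ to 3′ on the gene's strand, with capitals for the GC box letters GGGCGG on either strand (CCGCCC where it lies on the other). They lie at chr16:94997697-94997946 (minus strand), chr7:46396218-46396467 (plus strand) and chrX:142306199-142306448 (minus strand).
Kcnj6: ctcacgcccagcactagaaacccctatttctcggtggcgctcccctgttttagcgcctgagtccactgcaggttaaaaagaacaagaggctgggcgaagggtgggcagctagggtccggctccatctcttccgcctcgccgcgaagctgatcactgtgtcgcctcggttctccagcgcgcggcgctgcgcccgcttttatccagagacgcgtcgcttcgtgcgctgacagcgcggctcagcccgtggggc
Kcnc1: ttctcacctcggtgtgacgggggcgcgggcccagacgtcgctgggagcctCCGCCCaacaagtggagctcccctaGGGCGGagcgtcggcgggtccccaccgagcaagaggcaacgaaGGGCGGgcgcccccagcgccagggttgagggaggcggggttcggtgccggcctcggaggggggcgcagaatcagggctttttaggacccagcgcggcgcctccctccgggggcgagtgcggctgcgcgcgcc
Kcne1l: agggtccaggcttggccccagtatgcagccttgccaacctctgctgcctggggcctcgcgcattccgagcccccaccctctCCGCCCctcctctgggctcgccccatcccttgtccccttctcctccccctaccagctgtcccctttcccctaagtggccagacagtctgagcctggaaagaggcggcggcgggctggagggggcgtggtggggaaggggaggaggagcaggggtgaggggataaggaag
The window of Kcnj6 shown, at the start of the deposited gene, was 64.0% G and C with 26 CpG and 0 GC boxes, and the other Kcnj6 window (chr16:94856691-94856940, minus strand), not shown, was 65.6% with 7 CpG and 1 GC box. The Kcnc1 window was 74.4% with 30 CpG and 3 GC boxes, and the Kcne1l window was 68.0% with 9 CpG and 1 GC box. Over all windows, GGGCGG occurred in 48.8% of those of the members against 32.7% of 32851 RefSeq windows of the same length. The TATA box letters TATAAA occurred in 2.44% against 12.4%, CCAAT in 29.3% against 33.8%, and the cyclic AMP response element TGACGTCA in 0 of 82 against 1.55%. TCAGCACC, a stretch of the site of the neuronal repressor REST, occurred in 1.22% against 1.32%. Both strands were searched, motifs could overlap, and a match describes the letters only.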

How the data were processed

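Total RNA of 6 whole brainstems (3 WT, 3 labelled Rag1-/-) was sequenced. Per the labels and methods, the authors aligned reads to mm10 with STAR 2.5.3a, counted them on RefSeq transcripts in Partek Flow and deposited CPM values (counts scaled to library size) with 0.0001 as the lowest value. Counts were not used: 86.3% to 87.9% of low values were whole reads within 0.1 read. Coordinates are those of the deposited table, with the end 1 base before the deposited stop, since 26 of the 40 members with the start of RefSeq have a stop 1 base past its end.

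Values were tested as log2(CPM + 0.1), which understates changes of low genes, for the 16762 genes averaging 0.1 CPM or more, with limma-trend (limma 3.58.1, R 4.3.3) and Benjamini-Hochberg adjustment over all of them. The p-values measure the spread between these libraries. The test was tested on simulated data. Folds were given for members among the 12 with the smallest p, and levels for others; some members are counted but not reported here. The members, the 11 marker lists (neuron, oligodendrocyte, astrocyte, microglia, endothelial, mural, choroid plexus, cerebellar, forebrain and thalamus, pituitary, brainstem) and the partner list were chosen with earlier results of these data known. At a p of at most 0.05, 3 of 7 choroid plexus, 4 of 6 pituitary and 1 of 7 endothelial genes were lower, and microglia, mural, cerebellar, forebrain and thalamus and brainstem genes gave 0. Exon lengths were from GENCODE and were found for 83 of 83 members. Alternatives were pseudocounts of 0.01 and 1, filters, scalings, no trend, a replicate block, a term for Xist and leaving out libraries.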

Additional observations from a re-analysis of the deposited data

How the results depend on the processing

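Under each alternative run, 0 members had an adjusted p under 0.05. The folds of the 12 members with the smallest p kept their direction in all 191 values, none with an adjusted p under 0.05. Shares of all genes by the same count are given in brackets. At an unadjusted p of at most 0.05, the 14 lower members (9.29%) were 7 after median-of-ratios rescaling (4.38%), 6 after quantile normalization (3.82%) and 8 without a trend (7.67%). The 1 higher member (2.27%) became 2 with a pseudocount of 1 (2.25%), without a filter (2.25%), with the rescalings (4.70% and 5.10%), without a trend (2.12%) and, in an alternative chosen after seeing the data, without both libraries whose regional markers stood apart (WT replicate 3 and Rag1-/- replicate 2; 2.5%), and 3 with the Xist term (3.96%). The median log2 fold change of the members (-0.07, all genes -0.05) was -0.0424 after median-of-ratios rescaling (-0.00976), -0.0295 after quantile normalization (0.00223) and -0.0973 with the Xist term (-0.0516). The 4 partner genes (11.6%) were 1 after median-of-ratios rescaling (9.09%) and 2 after quantile normalization (8.92%), without a trend (9.79%) and without both regional libraries (11.7%). The 12 members without overlap downward (14.4%) were 6 after median-of-ratios rescaling (7.74%) and 22 without both regional libraries (32.5%), where fewer samples overlap less. The 2 without overlap upward (3.98%) were 1 at a mean of at least 1 CPM (4.12%) and 8 without both (11.8%). Leaving out 1 library gave 8 to 19 lower members (5.18% to 9.73%; 19 was without WT replicate 2, with 9.73%), 0 to 4 higher members (1.45% to 2.35%), a median of -0.127 to -0.0598 (-0.0542 to -0.046), 1 to 6 partner genes (6.63% to 12.1%), 14 to 24 members without overlap downward (19.1% to 23.5%) and 2 to 7 upward (6.01% to 8.09%). Equal replicate numbers did not mark pairs (correlations of deviations 0.0926, -0.220 and -0.0183), and the replicate block left 2 partner genes (8.1%) and 11 lower members (6.59%). Of the 83 members, 1 (Kcnk7) had a library at or under 3 reads. Where no cause is named, the cause was not tested.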
